A study of Mus musculus with 7 samples.

Results

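The 35 genes described here are stimulated by type I interferon and were chosen by name from 25127 genes with counts of unique molecular identifiers (UMIs, counted molecules). All 35 were in the table and all had UMIs in each of the 7 libraries. The cells were enriched for CD11b, an integrin chain of neutrophils, monocytes, macrophages and some dendritic cells, by magnetic separation from C57/Bl6 mice. Naive mice gave 3 libraries (blood, bone marrow and spleen), and mice bearing an LLC tumor, the transplantable Lewis lung carcinoma, gave 4 at day 14 (the same tissues and the tumor). No other treatment, genotype or age is in the labels, which also do not say how many animals a library holds or which tissues share an animal. With a single library for each tissue and state, no value below comes with a p-value or a test, and cells are not replicates. Intervals in parentheses are 95% intervals for counting error only.

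Type I interferons bind the receptor of Ifnar1 and Ifnar2 on almost every cell, and the kinases Jak1 and Tyk2 then act on STAT2. With IRF9 it is part of a complex that binds a GAAA-rich element before its target genes, the interferon-stimulated genes. Their products sense, cut or sequester viral RNA and also feed back on the pathway, and monocytes and macrophages are strong responders.

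The RefSeq table of promoters (GRCm38.p6, 250 bases before to 50 bases after a transcript start) matched 26 of the 35 members by symbol. The core of that element (GAAA, any 2 bases, GAAA, on either strand) was found in the window of 15 of these 26 members, or 57.7%, against 3.99% of 27025 genes in the table. Overlapping matches were counted separately and a site seen from several starts once, and 8 members held more than 1. These are matches of letters and not measured binding. The bases before the start of 6 members are printed 5′ to 3′ on the strand of the gene, outside its annotated span, with matches to the motif in capitals. Isg15, Ifit1 and Rsad2 are shown as members far higher in tumor tissue, Bst2 as one that was less than 2-fold higher with 2 matches, and Slfn4 and Slfn1 as 2 neighbours without a match that went opposite ways.
Isg15, minus strand, chr4:156200819-156201018: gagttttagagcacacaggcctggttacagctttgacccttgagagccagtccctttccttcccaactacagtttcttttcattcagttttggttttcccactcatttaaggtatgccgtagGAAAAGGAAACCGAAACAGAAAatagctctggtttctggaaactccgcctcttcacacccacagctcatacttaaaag
Ifit1, plus strand, chr19:34640689-34640888: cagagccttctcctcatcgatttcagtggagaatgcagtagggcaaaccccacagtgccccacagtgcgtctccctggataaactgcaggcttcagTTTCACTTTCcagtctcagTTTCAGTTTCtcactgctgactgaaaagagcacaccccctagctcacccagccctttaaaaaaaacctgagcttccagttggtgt
Rsad2, minus strand, chr12:26456453-26456652: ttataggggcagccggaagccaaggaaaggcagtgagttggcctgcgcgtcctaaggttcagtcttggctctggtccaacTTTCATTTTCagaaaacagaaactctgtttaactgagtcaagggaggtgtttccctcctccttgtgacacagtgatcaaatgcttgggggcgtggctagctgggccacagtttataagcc
Bst2, minus strand, chr8:71537473-71537672: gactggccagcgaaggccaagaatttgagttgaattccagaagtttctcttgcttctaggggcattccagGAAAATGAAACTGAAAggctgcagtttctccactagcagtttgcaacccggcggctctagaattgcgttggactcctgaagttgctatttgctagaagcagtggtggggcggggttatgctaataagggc
Slfn4, plus strand, chr11:83174986-83175171: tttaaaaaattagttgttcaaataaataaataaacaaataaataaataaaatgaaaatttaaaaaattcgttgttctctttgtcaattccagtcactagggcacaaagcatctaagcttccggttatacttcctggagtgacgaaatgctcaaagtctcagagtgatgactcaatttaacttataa
Slfn1, plus strand, chr11:83116620-83116819: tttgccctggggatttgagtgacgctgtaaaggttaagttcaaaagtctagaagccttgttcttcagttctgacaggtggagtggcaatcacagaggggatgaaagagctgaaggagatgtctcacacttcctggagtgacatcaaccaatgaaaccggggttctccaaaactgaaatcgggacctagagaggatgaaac
Isg15 carried 3 overlapping matches, Ifit1 2 separate ones and Rsad2 1. The windows of Ifit2, Oasl1, Oasl2, Isg20, Cmpk2, Irf7, Slfn1, Slfn4, Xaf1, Herc6 and Ifi44 held none.

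Libraries held 57 cells and 617821 UMIs (tumor-bearing bone marrow) to 1917 cells and 20844058 UMIs (tumor tissue), with medians of 8841 to 12445 UMIs and 2.85% to 3.46% mitochondrial UMIs per cell. Itgam, which encodes CD11b, had a UMI in 87.6% to 92.7% of cells of each library. The 16 cell clusters used here are the authors' and are called by number. They were built from expression that includes the members, so member levels by cluster are a description. Of the 4290 cells, 4 carried a barcode that also occurred in another library.

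The 35 genes together made up 0.329% to 0.419% of all UMIs in the 6 libraries of blood, marrow and spleen, and 0.821% in tumor tissue. Tumor tissue had the highest level of 30 of the 35 members. Across the other 6 libraries the highest and the lowest level differed by less than 2-fold for 23 members and by 2-fold or more for 12. Levels below are UMIs per 1000000 UMIs of a library (CPM), and in each pair the naive library comes first. A level is compared only with the same gene elsewhere.

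**Figure D1:**
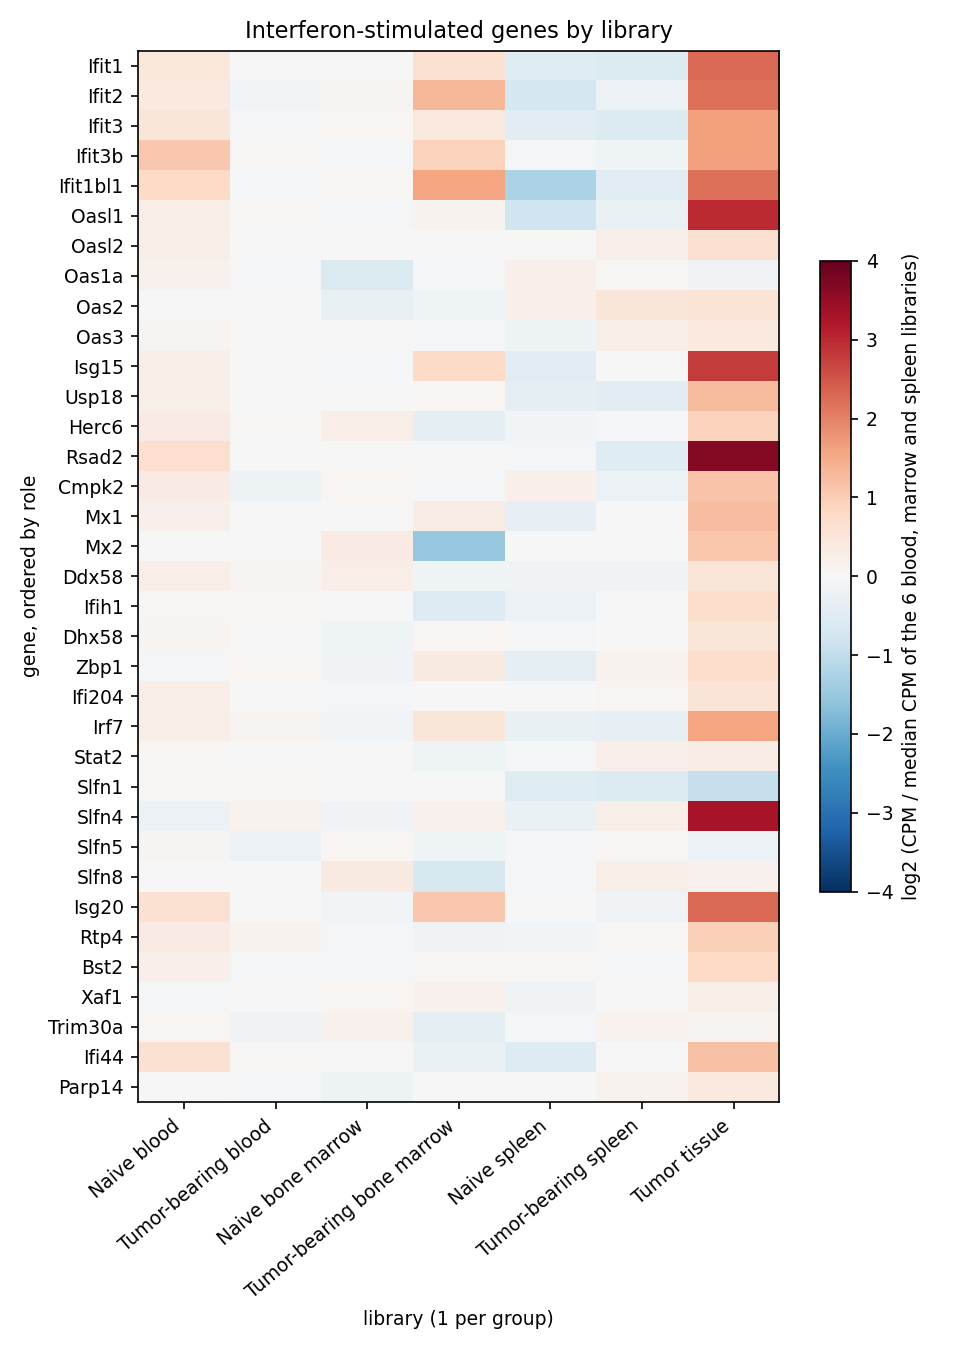
Each row is 1 of the 35 genes and each column 1 library; colour gives the log2 of the CPM over the gene's median CPM in the 6 libraries of blood, marrow and spleen. Rsad2, Slfn4, Oasl1 and Isg15 are the darkest in tumor tissue, and Slfn1 is lower there.

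Against tumor-bearing blood, 33 members passed the size rule (at least 30 UMIs over both libraries and 20 CPM in one). Tumor tissue exceeded tumor-bearing blood 2-fold or more for 14 of them and fell 2-fold or more short for 0, beside 10.9% higher and 9.44% lower of the 5648 genes measured. The median log2 ratio was 0.82 for the members and -0.13 for all genes. Against tumor-bearing spleen, which shares the tumor library with this comparison, 14 of 33 were higher and 0 lower, beside 10.7% and 12% of all genes, with a median log2 ratio of 0.84. Mx2 and Ifi44 fell short of the size rule. The promoter motif was found in 6 of the 12 members with a window that were 2-fold higher than in blood and in 9 of the 13 measured ones that were not.

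The cells of the libraries differed beside this. Macrophage markers (7 of 7 detected) summed to 5756 CPM in tumor tissue against 1668 in blood of tumor-bearing mice, and neutrophil markers to 335 (7 of 9 detected, Ngp and Camp at 0) and 3815 CPM (9 of 9). Marker genes of carcinoma and stromal cells summed to 17.2 CPM (7 of 7) and 4.42 (2 of 7, with Krt8, Krt18, Col1a1, Col1a2 and Col3a1 at 0). Those of plasmacytoid dendritic cells, which make much type I interferon, summed to 101 CPM (4 of 6, Ly6d and Klk1 at 0) and 102 (6 of 6). These near-equal sums did not hold for each marker. Siglech, from this list, stood at 5.31 CPM in that blood library and at 0.144 in the tumor library. It rested on few cells, with 52 UMIs in 8 cells of the whole series and 23 of them in 1 cell. The sums are therefore not a measure of how many such cells each library held. The part of these cell types in the member levels was not tested.

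Rsad2 and Cmpk2 are neighbours 12664 bases apart on chromosome 12 (RefSeq, GRCm38.p6, as all positions below) and act on nucleotides. Rsad2 (viperin, 26442743 to 26456452) makes a chain-terminating analogue of CTP, and Cmpk2 (26469117 to 26479837) is a mitochondrial nucleotide kinase that feeds it. Rsad2 stood at 75.6 and 47.3 CPM in blood, 48.7 and 48.6 in marrow, 45.9 and 33.9 in spleen and 607 in tumor tissue, so tumor tissue lay far above the 6 other libraries, which did not reach 80 CPM. It was 12.8-fold (11.2 to 14.8) higher in tumor tissue than in tumor-bearing blood and 17.9-fold (15.5 to 20.7) higher than in tumor-bearing spleen. Cmpk2 stood at 49.2 and 34.3 CPM in blood, 40.9 and 37.2 in marrow, 45.5 and 32.9 in spleen and 85.6 in tumor tissue, and was 2.50-fold (2.12 to 2.96) and 2.60-fold (2.24 to 3.04) higher. The 2 neighbours thus differed in the size of the tumor difference, with intervals that did not overlap.

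The IFIT proteins bind foreign 5′ ends of RNA and block its translation, and their genes lie together on chromosome 19. Ifit1 (34640889 to 34650009) had 70.9 and 52.8 CPM in blood, 50.6 and 79.3 in marrow, 37.1 and 35.5 in spleen and 246 in tumor tissue. Ifit2 had 46.6 and 32.5 CPM in blood, 38.3 and 89.0 in marrow, 21.7 and 30.1 in spleen and 163 in tumor tissue. Ifit3 had 133 and 91.5 CPM in blood, 101 and 125 in marrow, 71.5 and 65.5 in spleen and 297 in tumor tissue. In all 3 tumor tissue was the highest library, and the 2 spleens were the lowest. Ifit3b, a near copy of Ifit3 whose 3′ reads may be split with it, had 20.3 and 9.73 CPM in blood, 9.09 and 17.8 in marrow, 9.27 and 8.34 in spleen and 29.5 in tumor tissue. Ifit1bl1 had 24.8 and 13.3 CPM in blood, 14.9 and 42.1 in marrow, 5.88 and 10.6 in spleen and 65.1 in tumor tissue. Over tumor-bearing blood the folds were 4.66 for Ifit1, 5.03 for Ifit2, 3.24 for Ifit3, 3.03 for Ifit3b and 4.90 for Ifit1bl1, so all 5 were at least 2-fold higher.

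Isg15 is a ubiquitin-like protein that is attached to other proteins and also secreted, Herc6 is its main ligase in the mouse, and Usp18 removes it and dampens the receptor. Isg15 (chromosome 4, 156199424 to 156200818) had 286 and 241 CPM in blood, 227 and 408 in marrow, 180.4 and 244 in spleen and 1682.5 in tumor tissue. Usp18 had 54.9 and 48.0 CPM in blood, 46.1 and 50.2 in marrow, 35.7 and 34.2 in spleen and 113 in tumor tissue. Herc6 had 29.3 and 24.1 CPM in blood, 27.9 and 17.8 in marrow, 21.7 and 22.6 in spleen and 43.9 in tumor tissue. Isg15 was 6.99-fold (6.58 to 7.43) higher in tumor tissue than in tumor-bearing blood and Usp18 2.37-fold (2.06 to 2.73), while Herc6 at 1.82-fold (1.49 to 2.24) stayed under 2-fold.

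OAS enzymes make the 2′-5′ oligoadenylates that switch on RNase L, and the OAS-like Oasl1 is known to hold back translation of Irf7. Oasl1 and Oasl2 lie 10897 bases apart on chromosome 5. Oasl1 had 21.0 and 18.1 CPM in blood, 16.9 and 19.4 in marrow, 10.2 and 14.4 in spleen and 138 in tumor tissue. Oasl2 had 137 and 116 CPM in blood, 116 and 117 in marrow, 119 and 134 in spleen and 182 in tumor tissue. Oasl1 was 7.64-fold (6.13 to 9.63) higher in tumor tissue than in tumor-bearing blood and Oasl2 1.57-fold (1.43 to 1.72), so the intervals of these neighbours did not overlap either. Oas1a had 71.6 and 61.2 CPM in blood, 42.8 and 61.5 in marrow, 72.8 and 65.2 in spleen and 56.9 in tumor tissue. Oas2 had 32.3 and 33.2 CPM in blood, 26.6 and 29.1 in marrow, 37.3 and 45.7 in spleen and 47.9 in tumor tissue. Oas3 had 80.2 and 73.2 CPM in blood, 75.9 and 71.2 in marrow, 65.3 and 87.8 in spleen and 96.7 in tumor tissue. None of the 3 enzymes reached 2-fold against blood or spleen, and Oas1a, whose fold over blood was 0.928 (0.814 to 1.06), was no higher in tumor tissue than in naive blood or spleen.

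Among transcription factors, Irf7 amplifies the interferon response and Stat2 is part of the complex that starts it. Irf7 had 349 and 315 CPM in blood, 267 and 409.5 in marrow, 236 and 231 in spleen and 865 in tumor tissue. Stat2 had 73.2 and 69.6 CPM in blood, 72.0 and 63.1 in marrow, 69.0 and 81.9 in spleen and 87.6 in tumor tissue. Irf7 was 2.75-fold (2.60 to 2.90) higher than in tumor-bearing blood and Stat2 1.26-fold (1.12 to 1.42). The GTPase Mx1 had 46.1 and 40.01 CPM in blood, 40.9 and 50.2 in marrow, 32.6 and 39.6 in spleen and 95.8 in tumor tissue. Mx1 was 2.39-fold (2.06 to 2.80) higher than in tumor-bearing blood. Its relative Mx2 had 9.31 and 9.06 CPM in blood, 11.7 and 3.24 in marrow, 9.27 and 9.21 in spleen and 19.8 in tumor tissue, which was 2.18-fold (1.58 to 3.08) higher than in tumor-bearing blood but below the size rule.

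Nucleic acid sensors among the members were under 2-fold in both tumor comparisons. The RNA helicases Ddx58 (RIG-I), Ifih1 (MDA5) and Dhx58 (LGP2) start the response to viral RNA. Ddx58 had 59.1 and 53.5 CPM in blood, 59.7 and 43.7 in marrow, 44.3 and 45.0 in spleen and 68.4 in tumor tissue. Ifih1 had 57.2 and 55.7 CPM in blood, 52.6 and 37.2 in marrow, 45.2 and 54.8 in spleen and 86.9 in tumor tissue. Dhx58 had 59.0 and 53.9 CPM in blood, 48.0 and 58.3 in marrow, 52.7 and 55.3 in spleen and 76.6 in tumor tissue. Their folds over tumor-bearing blood were 1.28, 1.56 and 1.42. Zbp1, a sensor of Z-form nucleic acids that can start cell death, had 202 and 227 CPM in blood, 195 and 275 in marrow, 165 and 239 in spleen and 347 in tumor tissue. Ifi204, a DNA-binding protein of a family with close copies, had 331 and 271 CPM in blood, 263 and 277 in marrow, 276 and 292 in spleen and 397 in tumor tissue. Their folds over tumor-bearing blood were 1.53 and 1.47.

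The 4 Schlafen genes lie in 1 cluster on chromosome 11, are linked to growth control and viral restriction, and spread furthest apart. Slfn4 (83175172 to 83190216) had 17.2 and 21.9 CPM in blood, 18.2 and 22.7 in marrow, 16.5 and 23.6 in spleen and 196 in tumor tissue. Slfn1 (83116820 to 83122670) had 291 and 301 CPM in blood, 278 and 288 in marrow, 200.1 and 194 in spleen and 151 in tumor tissue. Slfn4 was 8.94-fold (7.32 to 11.02) higher in tumor tissue than in tumor-bearing blood, and Slfn1, 52501 bases away, was 1.998-fold (1.87 to 2.13) lower, just short of the 2-fold rule. Slfn1 was the member with the lowest ratio, and its tumor level lay below those of the 6 other libraries. Slfn5 had 420.2 and 330.5 CPM in blood, 409 and 345 in marrow, 374 and 408 in spleen and 336 in tumor tissue. Slfn8, which has close copies nearby, had 84.0 and 81.6 CPM in blood, 107 and 53.4 in marrow, 80.3 and 96.8 in spleen and 93.3 in tumor tissue. Their folds were 1.02 and 1.14.

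Of the 7 remaining members, the RNA exonuclease Isg20 passed the 2-fold rule. Isg20 had 54.5 and 36.3 CPM in blood, 33.8 and 76.1 in marrow, 36.0 and 32.7 in spleen and 174 in tumor tissue, and was 4.80-fold (4.11 to 5.65) higher than in tumor-bearing blood. Bst2 (tetherin, which holds budding virus at the cell surface) had 353 and 292 CPM in blood, 297 and 316 in marrow, 315 and 295 in spleen and 530.5 in tumor tissue. Rtp4, a receptor-transporting protein, had 191 and 168 CPM in blood, 146 and 138 in marrow, 139.7 and 158 in spleen and 296 in tumor tissue. Bst2 was 1.82-fold (1.72 to 1.93) and Rtp4 1.77-fold (1.64 to 1.91) higher than in tumor-bearing blood. Xaf1, a partner of the apoptosis inhibitor XIAP, had 99.5 and 101 CPM in blood, 107 and 115 in marrow, 91.4 and 102 in spleen and 119.5 in tumor tissue. Trim30a, a tripartite-motif protein with close copies, had 205 and 176 CPM in blood, 217 and 151 in marrow, 185 and 217 in spleen and 210.1 in tumor tissue. Parp14, an ADP-ribosyltransferase, had 146 and 137 CPM in blood, 128 and 149 in marrow, 145 and 159 in spleen and 193 in tumor tissue. Their folds lay between 1.18 and 1.40. Ifi44 had 5.93 and 3.98 CPM in blood, 3.89 and 3.24 in marrow, 2.71 and 3.82 in spleen and 8.73 in tumor tissue, the lowest counts of the members with 300 UMIs in all. It was 2.19-fold (1.35 to 3.79) higher than in tumor-bearing blood, below the size rule. Over the 19 measured members not 2-fold higher, folds ran from 0.501 to 1.82.

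**Figure D2:**
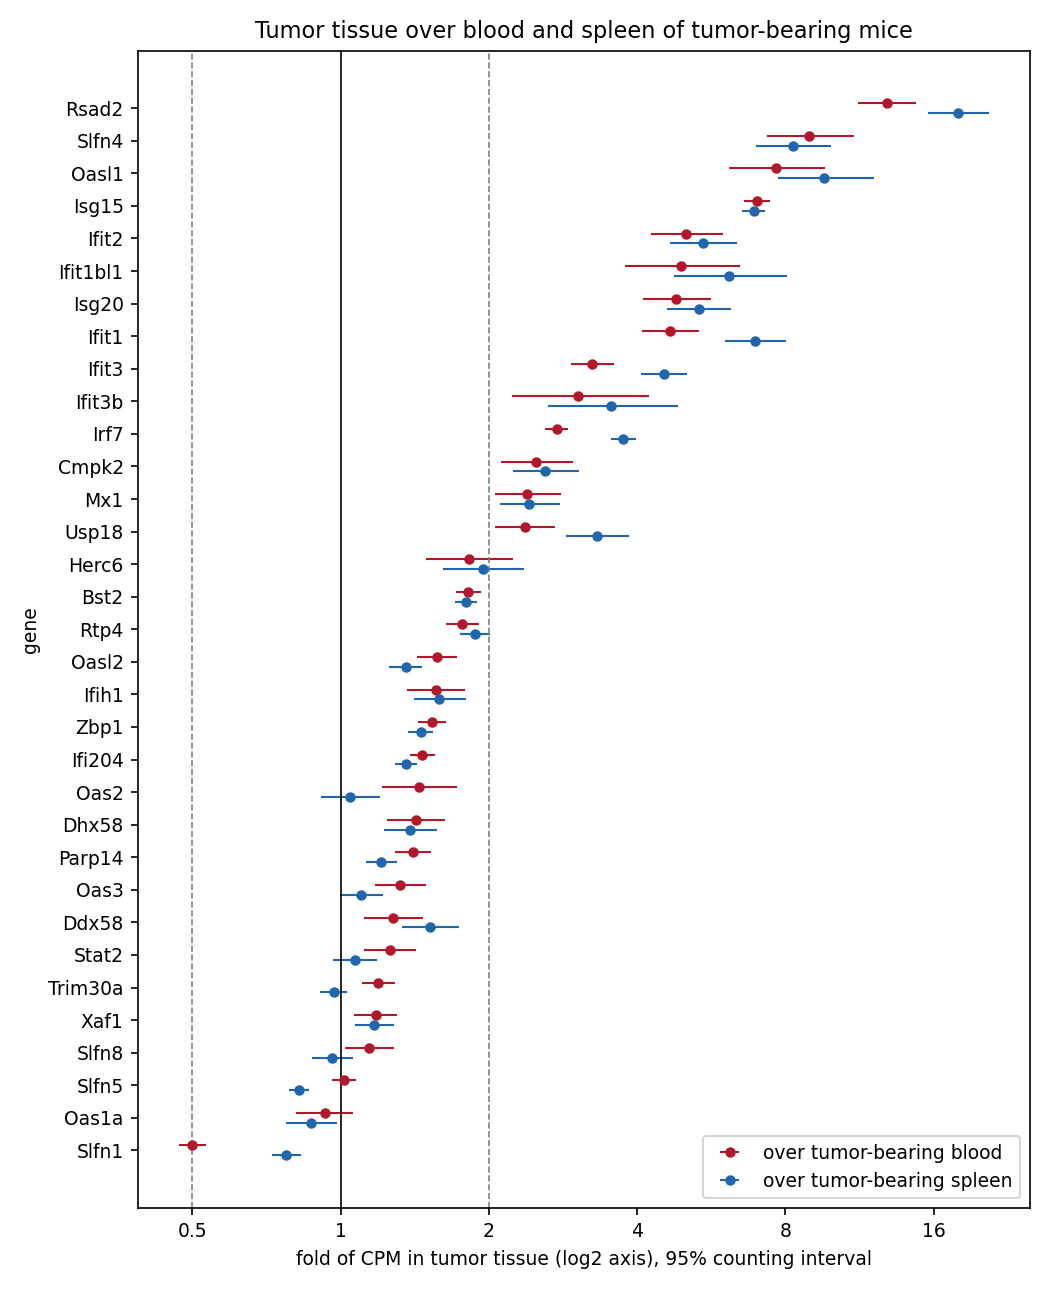
Points are CPM folds of tumor tissue over tumor-bearing blood (red) and spleen (blue) with 95% counting intervals on a log2 axis, for the 33 measured genes; dashed lines mark 2-fold. Rsad2 leads at 12.8-fold and 17.9-fold, and Slfn1 is the lowest.

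Within tumor tissue the members were held by part of the cells. Clusters 5, 8 and 10 made up 40.1% of cells and 35.3% of UMIs, and held 58.3% (Bst2) to 91.0% (Ifit1bl1) of each member's UMIs. The share was at least 80% for 11 members. Cluster 10 alone, with 198 cells (10.3%), held 58.8% of Rsad2, 57.3% of Cmpk2 and 36.1% of Isg15 UMIs, but 17.5% of Bst2. Levels by cluster are over all libraries, and 198 of the 199 cells of cluster 10 came from tumor tissue. Rsad2 stood at 4287 CPM in cluster 10, 875 in cluster 8, 525 in cluster 5, and 29.7, 27.8 and 43.1 in clusters 3, 7 and 9. Isg15 stood at 7337, 2816 and 2589.7 CPM in clusters 10, 8 and 5, and 357, 466 and 333 in clusters 3, 7 and 9. Both genes thus fell from cluster 10 to 8 to 5, with clusters 3, 7 and 9 below these in an order that differed between the genes. Without the cells of clusters 10 and 16, Rsad2 was still 8.92-fold, Isg15 6.04-fold and Slfn4 7.58-fold above tumor-bearing blood, and 11 of the 14 members stayed 2-fold higher. Cmpk2 at 1.27-fold and Mx1 at 1.68-fold did not, and Ifit3b fell short of the size rule.

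Counted per cell, the 35 genes were over 1% of UMIs in 558 of 1917 tumor tissue cells (29.1%, 27.1 to 31.2). The share was 59 of 814 (7.25%, 5.56 to 9.25) in naive blood and 13 of 354 (3.67%, 1.97 to 6.20) in tumor-bearing blood. In tumor tissue 103 cells lay between 0.9% and 1.1%, so the 558 is a range and not a type of cell. The median cell held 0.480% in tumor tissue, 0.265% in naive blood and 0.264% in tumor-bearing blood, and the lowest 10% of cells were at 0.0885%, 0.101% and 0.107% or below. Tumor tissue thus had the widest spread, with low cells no higher than those of blood. Cluster 10 had a median of 3.07% and 198 of 199 cells over 1%, and cluster 16 a median of 1.99% and 59 of 59 cells.

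**Figure D3:**
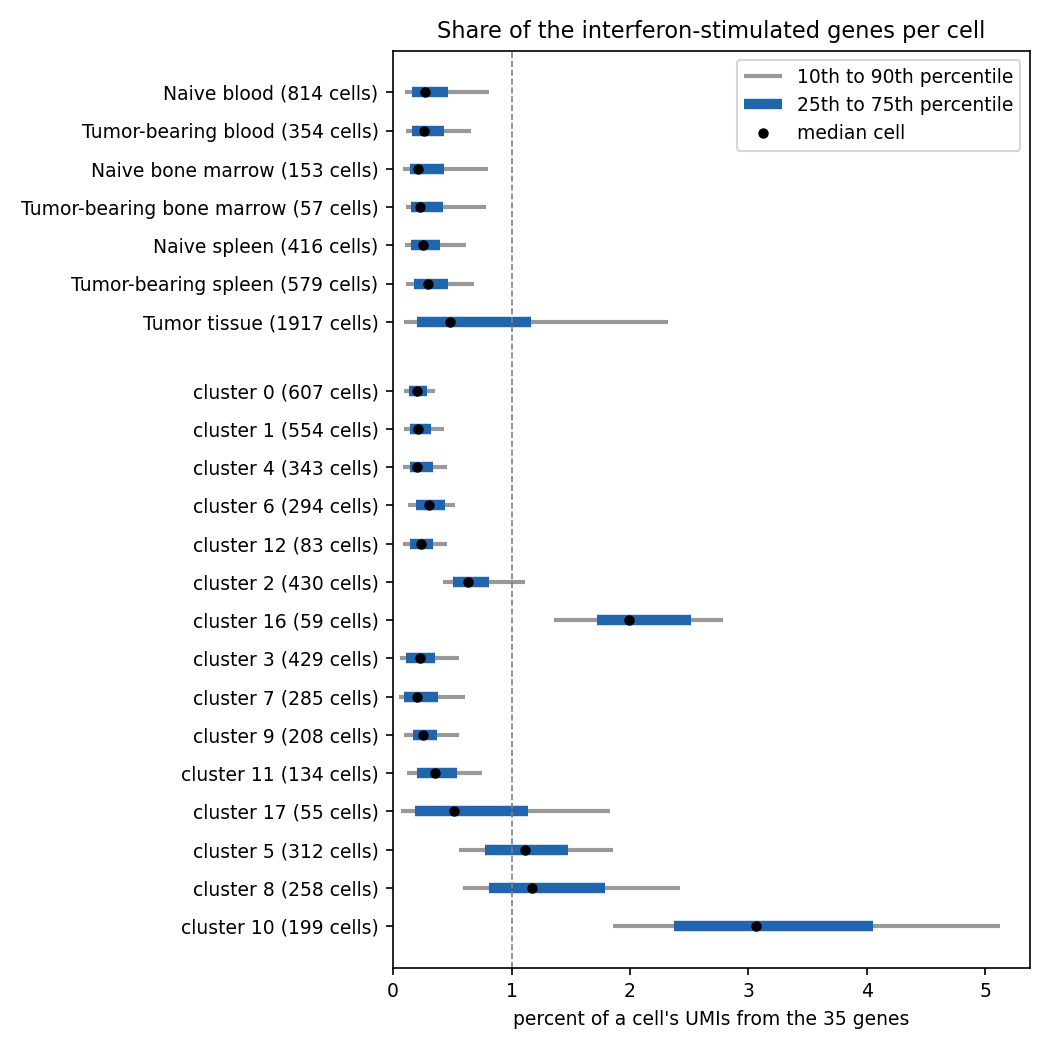
The percent of a cell's UMIs that came from the 35 genes, by library and by cluster (dot, median; thick bar, 25th to 75th percentile; thin bar, 10th to 90th). Clusters 10 and 16 stand above all other clusters, and the bars of tumor tissue are the longest among libraries.

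Detection was taken after each cell was thinned to 5000 UMIs, since depths differed. For Rsad2 it was near its ceiling in clusters 10 and 16, and did not show the higher level of cluster 10. Rsad2 had a UMI in 95.6% of cluster 10 cells, 96.6% of cluster 16, 59.6% of cluster 8 and 5.18% of cluster 0. Ifit3 was detected in 96.7%, 94.8%, 71.4% and 4.18% of the same clusters. Bst2 was detected in 95.6%, 100%, 96.7% and 60.0%, so it was common in clusters with few UMIs of Rsad2 and Ifit3. At full depth the shares of Rsad2 were 97.5%, 98.3%, 74.0% and 9.72%. No cell type here should lack these genes, so free RNA was not gauged. A low share, such as 3.89% of Ifit3 in cluster 7, bounds it from above for that gene and cluster alone.

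Tumor clusters 3, 7 and 9 were not 2-fold above tumor-bearing blood for most members, and clusters 11, 13 and 17 were not in this comparison. Clusters 3, 7 and 9 were grouped for their low member levels. The blood kept its clusters 2 and 16, which held 31.6% and 11.9% of its member UMIs. This choice of cells could itself set the count of lower members. In clusters 3, 7 and 9 together, against tumor-bearing blood, 1 of 30 measured members was at least 2-fold higher and 11 were lower, beside 9.48% and 9.37% of all genes. The higher one was Slfn4, at 84.6 and 21.9 CPM, 3.86-fold (3.13 to 4.82). Ifit3 stood at 13.3 and 91.5 CPM, 6.89-fold (5.59 to 8.57) lower, and Ifit1 at 11.98 and 52.8, 4.41-fold (3.48 to 5.62) lower. Isg15, with 385 and 241 CPM, was 1.60-fold (1.49 to 1.72) higher. The 11 lower members were Ifit1, Ifit2, Ifit3, Cmpk2, Mx1, Usp18, Ddx58, Slfn1, Slfn5, Stat2 and Herc6.

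Set against cluster 0 of blood, marrow and spleen, a cluster low in members, the same tumor cells had 5 of 26 members higher and 2 lower, beside 10.9% and 9.87% of all genes. The 5 were Slfn4 (7.18-fold), Isg15 (5.22), Rsad2 (2.97), Irf7 (2.61) and Isg20 (2.09). Cmpk2 was 2.93-fold (2.23 to 3.88) and Slfn1 2.41-fold (2.21 to 2.63) lower. The Ifit3 levels, 13.3 and 9.74 CPM, differed by 1.36-fold (0.999 to 1.87), an interval that reached 1. The part of free RNA of the tumor library in these levels was not tested.

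**Figure D4:**
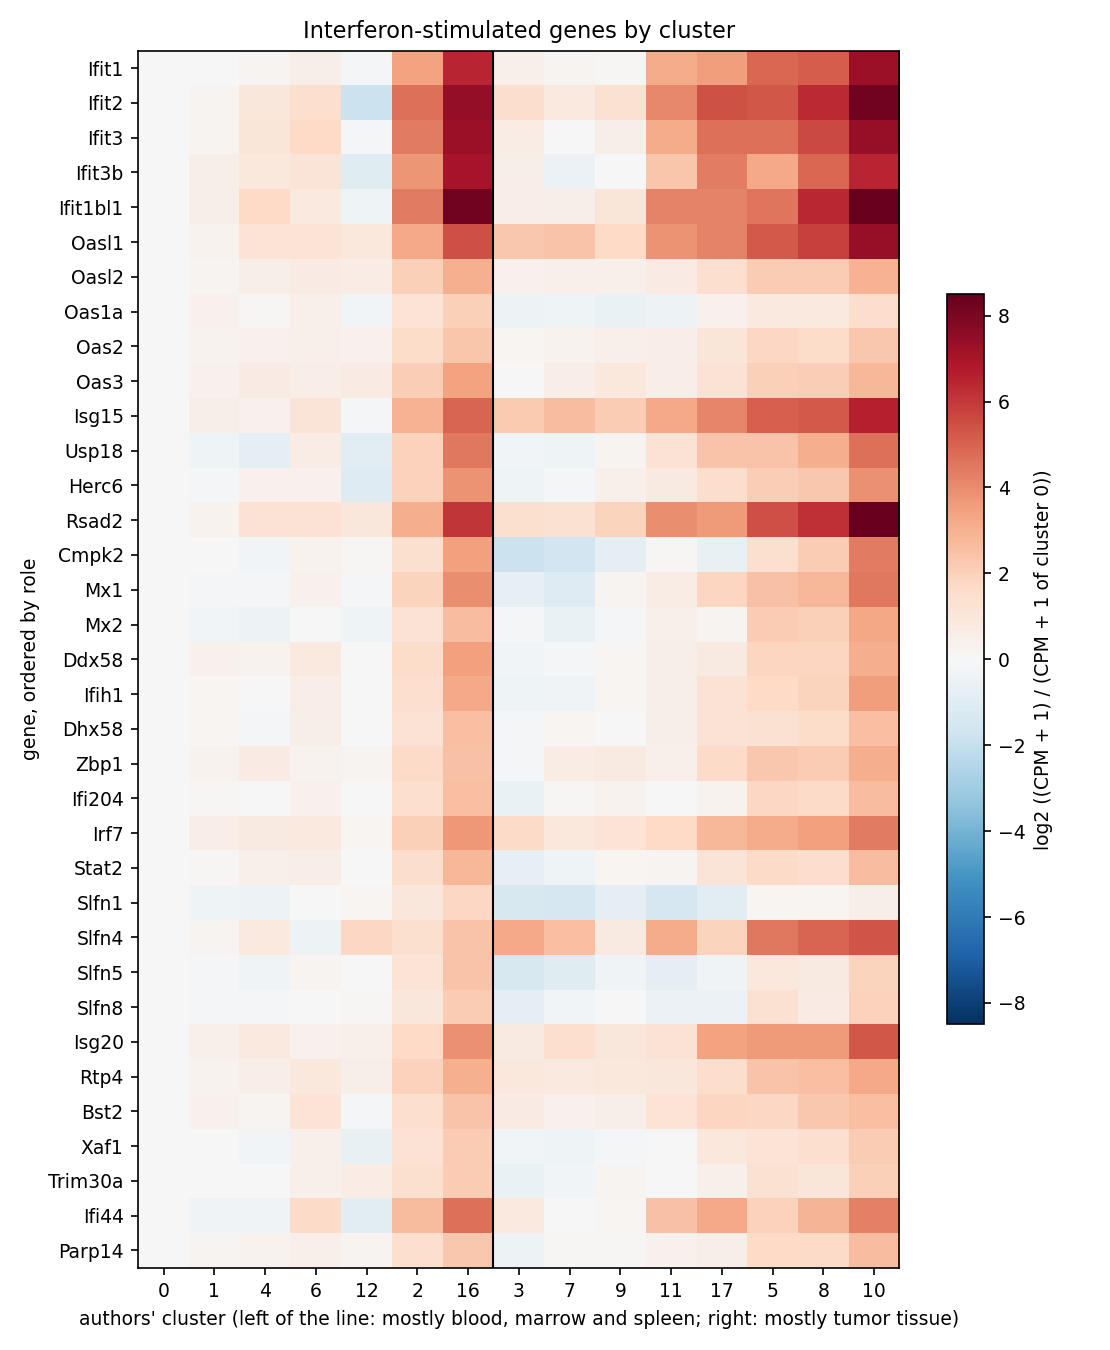
Rows are the 35 genes and columns the authors' clusters with at least 50 cells; colour is the log2 of CPM plus 1 over that of cluster 0. All 35 rows are at their darkest in cluster 10 or 16, and Slfn4 differs from Slfn1 in clusters 3, 7 and 11.

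Among the clusters mostly of blood, marrow and spleen cells, cluster 16 had the highest share of UMIs from the members. It held 59 cells, and all 35 members were at least 2-fold higher in it than in cluster 0, beside 7.01% of all genes, a count that the clustering itself could set. Ifit3 stood at 1681 CPM in cluster 16 and 9.74 in cluster 0, and Slfn1 at 759 and 219.9. Cluster 2, with 430 cells, was intermediate, with 31 of 33 members 2-fold higher than in cluster 0 (3.33% of all genes) and Ifit3 at 223 CPM. Among clusters of at least 50 cells, 21 members were highest in cluster 10 and 14 in cluster 16. Markers of T and NK cells were at or near 0 in both clusters (0 and 1.42 CPM). Siglech, a listed marker of plasmacytoid dendritic cells, was also at 0 in both, and the others on that list are not given here.

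Clusters 10 and 16 were compared directly. Of the 35 members, 5 were at least 2-fold higher in tumor cluster 10, 1 was lower and 29 were neither, beside 12.6% higher and 17.5% lower of 5057 genes. Slfn4 had 513 CPM in cluster 10 and 68.2 in cluster 16, 7.52-fold (5.62 to 10.3) higher. Rsad2 had 4308 and 818, 5.26-fold (4.83 to 5.74) higher. Oasl1 had 737 and 193, 3.81-fold (3.19 to 4.59) higher. These were also 3 of the 4 largest folds between tumor tissue and tumor-bearing blood, a comparison that shares the tumor cells. Isg15 was 3.24-fold (3.07 to 3.41) and Isg20 2.59-fold (2.25 to 2.999) higher, and Slfn1, with 316 and 759 CPM, was 2.40-fold (2.13 to 2.71) lower. Of the other 29 folds, 24 lay below 1.5, among them Ifit3 at 1.09-fold (1.02 to 1.16), Ifi204 at 1.04-fold (0.958 to 1.13) and Oasl2 at 0.953-fold (0.843 to 1.08). The Slfn4 level of cluster 16 thus lay below that of cluster 10, and above those of the 6 libraries of blood, marrow and spleen.

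**Figure D5:**
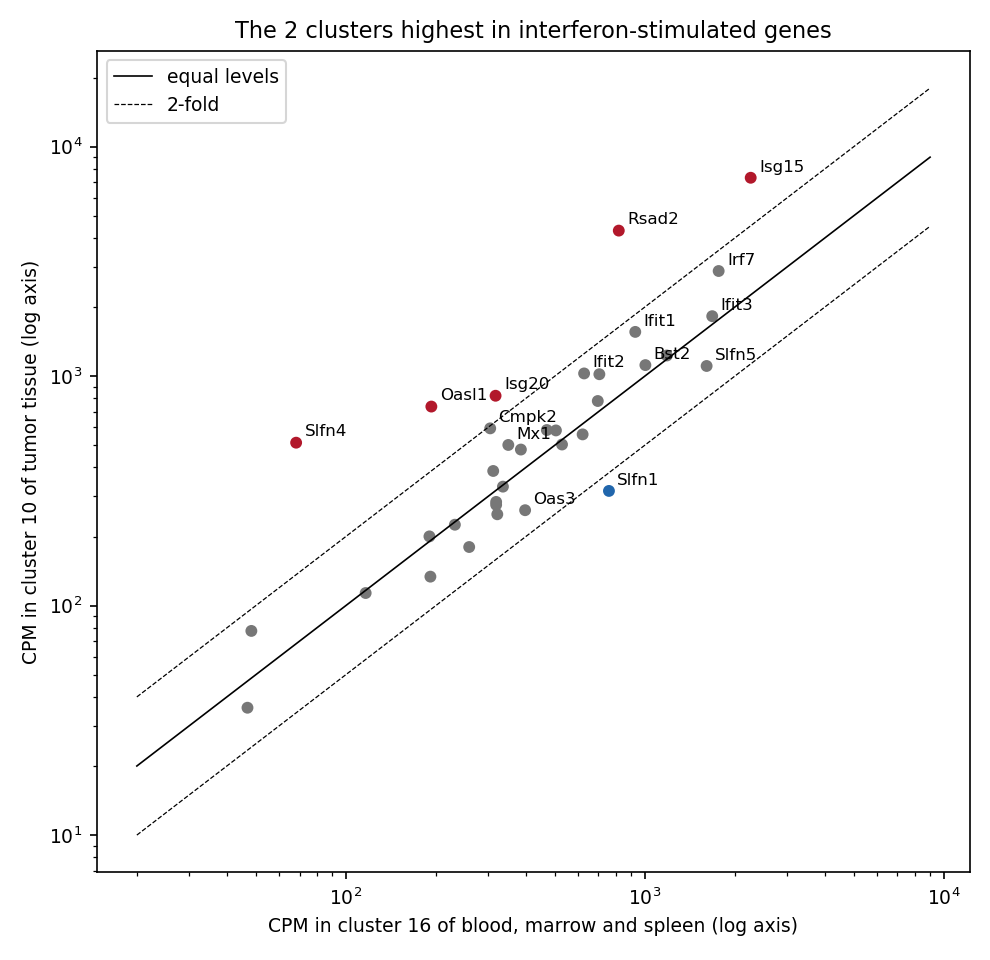
Each point is 1 of the 35 genes, with its CPM in cluster 16 of blood, marrow and spleen (59 cells) against cluster 10 of tumor tissue (198 cells), both on log axes; red and blue points are past 2-fold. Slfn4, Rsad2, Oasl1, Isg15 and Isg20 lie above the upper dashed line and Slfn1 below the lower one.

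Tumor-bearing and naive blood were set side by side to ask whether the members differed outside the tumor. Of 33 measured members, 0 were at least 2-fold higher in tumor-bearing blood (0.566% of all genes) and 1 was lower (0.132%), Ifit3b at 2.08-fold (1.496 to 2.96). Ratios were below 1 for 28 of 33 members, beside 47.1% of all genes, and the whole interval was below 1 for 17 (12.7% of all genes). Rsad2 was 1.60-fold (1.37 to 1.87) lower, Ifit3 1.46-fold (1.30 to 1.63), Ifit1 1.34-fold (1.16 to 1.56) and Isg15 1.19-fold (1.11 to 1.28). The share of cells in cluster 16 moved with this, at 35 of 814 cells in naive and 5 of 354 in tumor-bearing blood, and those cells held 22.8% and 11.9% of the member UMIs. Without cluster 16 the ratio of tumor-bearing to naive blood was 0.823 for Rsad2, 0.821 for Ifit3, 1.06 for Ifit1 and 0.997 for Isg15, and Ifit3b at 0.711 was no longer called.

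The blood libraries were also compared at a fixed cluster. Over all cells the median log2 ratio of the members was -0.20. The median ratio of the measured members was 0.985 in cluster 0 (24 members), 1.05 in cluster 1 (23), 0.853 in cluster 2 (33), 0.964 in cluster 4 (26) and 0.985 in cluster 6 (27). In cluster 2, Rsad2 had a ratio of 0.768 (0.577 to 1.01) and Isg15 of 1.05 (0.938 to 1.17), both with intervals that reached 1. Of the 5 clusters, cluster 2 had the lowest median. In cluster 4, Slfn4 was 3.04-fold (1.65 to 5.74) higher in tumor-bearing blood, the 1 of 26 members past 2-fold (1.07% of all genes in that cluster).

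In spleen, 0 of 30 measured members were 2-fold higher (0.332% of all genes) and 0 lower (0.0553%). Ratios of tumor-bearing to naive were above 1 for 20 of 30 (54.3% of all genes), with the whole interval above 1 for 13 (13.6% of all genes) and below 1 for 2 (10.2%). Zbp1 had 239 CPM in tumor-bearing and 165 in naive spleen (1.45-fold, 1.32 to 1.59), and Isg15 244 and 180.4 (1.35-fold, 1.24 to 1.48). Rsad2 went the other way, 1.35-fold (1.11 to 1.66) lower. In cluster 0, with 109 tumor-bearing and 95 naive cells, all 25 measured members had ratios above 1, from 1.015 to 3.31, beside 54.3% of all genes, with the whole interval above 1 for 9 (8.32%). Rsad2 there was 3.31-fold (1.39 to 9.07) and Mx1 2.25-fold (1.18 to 4.54) higher, and these 2 passed the 2-fold rule (1.87% of all genes in that cluster). The other clusters were less one-sided, with median ratios of 1.09 in cluster 1, 1.01 in cluster 2, 1.04 in cluster 4 and 1.095 in cluster 6, against 1.25 in cluster 0. Cmpk2 was 2.31-fold (1.63 to 3.30) lower in cluster 2 (1.01% of all genes lower). In cluster 4, Rsad2 was 2.50-fold (1.20 to 5.55) lower (1.26%) and Slfn4 2.04-fold (0.981 to 4.48) higher (1.20%). Rsad2 was thus lower in the sum over the tumor-bearing spleen and in its cluster 4, and higher in its cluster 0.

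Bone marrow libraries were the smallest, with 153 naive and 57 tumor-bearing cells. Of 31 measured members, 3 were at least 2-fold higher in tumor-bearing marrow (1.34% of all genes), Ifit1bl1 (2.82-fold, 1.55 to 5.17), Ifit2 (2.32-fold, 1.58 to 3.42) and Isg20 (2.25-fold, 1.49 to 3.41), and Slfn8 was 2.005-fold (1.37 to 3.01) lower (1.89% of all genes lower). A single cell, the only one of cluster 10 outside tumor tissue, held 564 member UMIs of its 12328, or 22.3% of all member UMIs of that library. It held 36 of the 55 Ifit2 UMIs, 13 of 26 of Ifit1bl1 and 21 of 47 of Isg20. Without the top cell of each gene the ratio was 0.819 for Ifit2, 1.44 for Ifit1bl1 and 1.27 for Isg20, so 0 members were 2-fold higher.

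Members also varied together from cell to cell. Over 1727 thinned tumor tissue cells, Pearson's r of a member with the summed UMIs of the other 34 had a median of 0.554, from 0.189 (Ifi44) to 0.814 (Isg15), and a median of 0.463 without cluster 10. In naive blood (802 cells) the median was 0.441 and in tumor-bearing spleen (565 cells) 0.274. Slfn4 had an r of 0.517 in tumor tissue, 0.265 in naive blood and 0.0349 in tumor-bearing spleen. These values describe cells of 1 library each, which share depth and free RNA, and low counts lower r.

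Transcripts of the ligands were almost undetected. Of 21 interferon genes, 18 had 0 UMIs in 4290 cells, which allows a share of up to 0.0699% of cells with a UMI. Ifnb1 had 6 UMIs in 2 tumor tissue cells, 5 of them in 1 cell of cluster 5. Ifng and Ifnk had 1 UMI each.

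Among 18 receptor and signalling genes, 2 exceeded the 2-fold rule upward and 3 downward in tumor tissue against tumor-bearing blood. Of all genes measured in that comparison, 10.9% were higher and 9.44% lower. The feedback inhibitors Socs1, with 81.0 and 13.9 CPM, and Socs3, with 307 and 95.3, were 5.82-fold (4.52 to 7.61) and 3.22-fold (2.92 to 3.56) higher. The phosphatase Ptpn6 had 223 and 517 CPM and the interferon-gamma receptor chain Ifngr1 362 and 742, both at least 2-fold lower. The third was the transcription factor Irf3, at 19.6 and 40.2 CPM, named after its values were seen. Of 16 nucleic acid sensing genes, 11 were measured, with Trim25 (3.81-fold, 3.38 to 4.32) and Ikbke (2.78-fold, 2.16 to 3.63) higher and the RNA receptor Tlr7 lower, at 28.6 and 86.0 CPM. These calls too stand beside 10.9% and 9.44% of all genes.

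Among 56 further interferon-stimulated genes in the table, 45 were measured. Of these, 11 were at least 2-fold higher in tumor tissue than in tumor-bearing blood and 0 lower, beside 10.9% and 9.44% of all genes. Their median log2 ratio was 0.33. The chemokine gene Cxcl10 had 1431 and 115 CPM, 12.4-fold (11.4 to 13.6) higher. Of 25 genes that respond mainly to interferon gamma, 17 were measured, 7 were higher and 0 lower, beside the same shares of all genes. The median log2 ratio of this list was 0.81. Cxcl9 had 204 and 3.09 CPM, and was at 889 CPM in cluster 10 and 1.42 in cluster 16. Against tumor-bearing spleen, 8 of 45 further interferon-stimulated genes were higher and 1 lower, beside 10.7% and 12% of all genes. In that comparison 6 of 18 genes of the interferon-gamma list were higher and 2 lower. Ciita, 1 of those 2, had 10.2 CPM in tumor tissue and 40.7 in spleen.

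Surface tags were also counted for interferon-inducible proteins that are not members, of which 2 are given in most detail. The antibody for Ly-6A/E (Sca-1) had a median of 115 per 10000 tag counts in cluster 10, 140 in cluster 8, 131 in cluster 3 and 71.9 in cluster 16, while Ly6a mRNA stood at 897, 1078, 248 and 118 CPM. The antibody for CD64 had medians of 109.7, 129.9, 124 and 84.0 in these clusters, while Fcgr1 mRNA stood at 1919, 1529, 688 and 891 CPM. Cluster 10 was thus above cluster 3 in mRNA and not in tag medians. For CD274 the tag medians of clusters 10 and 3 were 105 and 120, with Cd274 mRNA at 165 and 35.4 CPM. The antibody for MHC class I (H-2) had medians of 560 and 601 in these 2 clusters. In clusters 10, 8, 3 and 16 the median tag totals per cell were 1436, 2262.5, 1842 and 2516. The part of these totals in the medians was not tested.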

How the data were processed

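RNA and antibody tags of CD11b-enriched single cells were read with droplet 3′ chemistry, per the labels' protocols, and the submitters' processing notes name Cell Ranger and mm10. Not given in the sources used here were versions, annotation, strand setting and cell filters. What the authors deposited was unnormalized counts of UMIs per gene and cell (25127 genes, 4290 cells) and counts of 47 antibody tags in the same cells. Per the file headers, their metadata give each cell's library, cluster, totals and a mitochondrial fraction, which is the share of the cell's UMIs from mitochondrial genes. The 237 of 4527 metadata cells without counts were not analysed here. Totals computed from the counts equalled the metadata in all 4290 cells, of which the smallest held 854 UMIs, and no cell was filtered out. No doublet caller was run, and the alternative for it dropped the deepest 2% of cells in each library.

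For each gene, UMIs of all cells in a library were added up and scaled to 1000000 (CPM). Genes counted as measured had at least 30 UMIs over both sides of a comparison and 20 CPM in one, and called at 2-fold or more. Intervals of folds are exact 95% conditional binomial ones, those of shares are exact 95% Clopper-Pearson ones, and both cover counting error only. Medians over lists used log2 ratios with a pseudo-count of 1 CPM. Shares of cells with a UMI, and correlations, used cells thinned to 5000 UMIs, with shallower cells left out. Antibody tags were scaled to 10000 per cell. A limit for 0 UMIs used 3 counts. Positions and promoters came from RefSeq tables of GRCm38.p6, the release that mm10 corresponds to. Calculations used Python 3.11.15 with numpy 2.4.6, scipy 1.17.1, pandas 2.3.3 and matplotlib 3.10.9. The calls and intervals were checked on library sums simulated with counting error alone. That check held no spread between cells, so it cannot show how the intervals perform where few cells hold a gene's UMIs.

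Groups were the 7 libraries by tissue and disease state. The members, gene lists, comparisons and alternatives were chosen with earlier results of these data known. All members were eligible to be named, with values in all 7 libraries for those with at least 100 UMIs, which all 35 had. From each other list up to 4 genes with the largest ratio were eligible. Genes named outside that rule are said to be so. Alternatives were thinning, the mean over cells of CPM, other scaling, no size rule, an equal mix of clusters, cluster 0 alone, and leaving out the top cell of each gene, the deepest cells, or clusters 10, 16 or 12. Results for 1 gene of the signalling list and 1 promoter motif are not reported here.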

Additional observations from a re-analysis of the deposited data

Results flagged for a closer look

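Tumor-bearing over naive, 5 members measured in both tissues went opposite ways in blood and in marrow, with whole intervals on opposite sides of 1 and ratios at least 2-fold apart. Ifit1 had a ratio of tumor-bearing to naive of 0.745 in blood and 1.57 in marrow, Ifit2 of 0.697 and 2.33, Ifit1bl1 of 0.536 and 2.82, Isg15 of 0.841 and 1.80, and Isg20 of 0.665 and 2.25. The marrow ratio exceeded the blood ratio 2.10-fold for Ifit1, 3.34-fold for Ifit2, 5.26-fold for Ifit1bl1, 2.14-fold for Isg15 and 3.39-fold for Isg20. Slfn8, a Schlafen gene, had a ratio of 1.21 in spleen and 0.499 in marrow, which differ 2.42-fold. With 1 library for each tissue and state, these differences were not tested. In tumor-bearing marrow 1 cell of cluster 10 held 32 of 49 Ifit1, 36 of 55 Ifit2, 13 of 26 Ifit1bl1, 119 of 252 Isg15 and 21 of 47 Isg20 UMIs. Without the top cell of each gene the marrow ratios were 0.555 for Ifit1, 0.819 for Ifit2, 1.44 for Ifit1bl1, 0.967 for Isg15, 1.27 for Isg20 and 0.520 for Slfn8. Only Ifit1bl1 and Isg20 then still lay above 1 in marrow, and Slfn8 stayed below 1.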

How the results depend on the processing

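No paired analysis was possible because each tissue and state was 1 library. Against tumor-bearing blood the 14 members higher in tumor tissue became 11 to 16 over the alternatives, and against tumor-bearing spleen 11 to 17. An equal mix of clusters and cluster 0 alone were not run for tumor tissue, and of the others only leaving out clusters 10 and 16 ended calls among the 14 against blood. The lower count against tumor-bearing blood went from 0 to 1 (Slfn1, which lay just inside 2-fold) with scaling that left out mitochondrial, ribosomal-protein and haemoglobin genes, and without clusters 10 and 16. In blood the 1 lower member, Ifit3b, became 0 with thinning, with the mean over cells of CPM, without the top cell, without clusters 10 and 16, with an equal mix of clusters and in cluster 0 alone. In spleen 0 higher became 2 in cluster 0 alone (Rsad2, Mx1). In marrow the 3 higher members became 0 without the top cell, without clusters 10 and 16 and with an equal mix of clusters. The count was 1 in cluster 0 alone (Oas1a). Ifit1bl1 was still 2.30-fold higher without clusters 10 and 16 and 2.23-fold with the equal mix, but fell short of the size rule. So did Isg20 in cluster 0 alone, at 2.35-fold. Ifit2 reversed in marrow, to a ratio of 0.819 without the top cell and 0.534 in cluster 0 alone. The 1 lower marrow member, Slfn8, lay close to 2-fold, and the count became 2 with thinning (Cmpk2, Slfn8), without the top cell (Rsad2, Herc6) and with no size rule (Mx2, Slfn8), and 0 with the mean over cells of CPM, without the deepest 2% of cells and without cluster 12. It stayed 1 with another member in place of Slfn8 without clusters 10 and 16 and with an equal mix (Herc6) and in cluster 0 alone (Ddx58). Beyond the cells or genes that an alternative leaves out, the cause was not tested. Of the recomputed counts of members past 2-fold, 73 stayed within 1.5 times the reported count and 19 did not. The 73 include many counts of 0 that stayed 0, and marrow counts of 1 that held another member. They are thus no measure of how stable the calls themselves were.

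Tumor-bearing marrow held 57 cells, so single cells set several of its values. Shares of cells with a UMI depend on depth, and moved outside their counting interval in 618 values at full depth and 549 at 3000 UMIs. With 1 library per group no difference can be told apart from one between libraries, and where few cells hold a gene's UMIs the counting intervals understate its error.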

Other observations

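Clusters 17 and 11 of tumor tissue held intermediate levels of the members, and cluster 12, mostly of blood, marrow and spleen, low ones. Cluster 17, with 55 cells that all came from tumor tissue, was spread widely, with a median of 0.511% of UMIs from the 35 genes, a lowest 10% of cells at or below 0.0660% and 18 cells over 1%. Isg15 stood at 1341 CPM in it, Irf7 at 950.4 and Ifit3 at 275. Cluster 11, with 134 cells and a median depth of 29673 UMIs, had a median of 0.353% and 4 cells over 1%, with Isg15 at 700.1, Rsad2 at 185 and Slfn4 at 111 CPM. Cluster 12, with 83 cells of which 82 came from blood, marrow and spleen, had a median of 0.237% and 0 cells over 1%, and Isg15 at 65.6 CPM.

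The 10% of cells with the highest member percent held 26.6% of the member UMIs in tumor-bearing spleen, 28.5% in naive spleen, 31.2% in tumor-bearing blood, 35.4% in tumor tissue, 37.1% in naive marrow, 38.3% in naive blood and 42.4% in tumor-bearing marrow, where they were 6 cells. In tumor tissue these cells held 8.19% of all UMIs and in naive blood 10.3%.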
